A study of Mus musculus with 6 samples.

Results

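The chloride transporters and channels described here were 9 genes of a mixed cell culture grown from mouse dorsal root ganglia (DRG), which lie along the spinal cord and hold the cell bodies of sensory neurons wrapped by glia. They were the cation-chloride cotransporters Slc12a2, Slc12a4, Slc12a5 and Slc12a7, the anoctamins Ano1 and Ano6, the CLC proteins Clcn2 and Clcn3, and the volume-regulated anion channel subunit Lrrc8a. The genes were chosen by name, and each matched 1 row among the 45703 genes of the deposited count table. RNA sequencing was made on 6 replicate cultures that formed a single group. The donors were wild-type C57BL/6 mice aged 4 to 6 weeks, with no transgene or treatment named in the labels. The ganglia were digested with the collagenase blends Liberase TH and Liberase TM, then seeded on poly-L-lysine in DMEM/F12 medium containing 10% fetal calf serum plus the growth factors EGF and FGF, 10 ng/ml. RNA was taken on day 7 from 2 dishes per sample, with an RNA integrity number of at least 8.7, and was made into stranded poly-A libraries. The labels do not state whether the 6 samples came from separate animals, so p-values measure the spread between these cultures only, and no batch is named.

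Chloride moves across cell membranes through cotransporters, which couple it to sodium and potassium, and through channels and exchangers, which let it pass down or against its gradient. Slc12a2 encodes NKCC1, which loads cells with chloride, whereas Slc12a4, Slc12a5 and Slc12a7 encode the potassium-chloride cotransporters KCC1, KCC2 and KCC4, which carry it out. Mature central neurons are known for KCC2, while primary sensory neurons are known for NKCC1 and a high internal chloride, so that GABA depolarizes them. The channels and exchangers among the 9 genes are known for calcium-activated currents, membrane lipid scrambling, endosomal acidification and the control of cell volume.

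The RefSeq promoter table of GRCm38.p6, which gives the DNA around annotated gene starts, held 8 of the 9 genes, with 11 windows. DNA before annotated starts of 3 potassium-chloride cotransporters is printed because they come from 1 family and lay at the top, in the middle and at the bottom of the order of levels given further on. The windows span the 250 bases before the start, cut back where a GENCODE M21 exon began, and they run 5′ to 3′ on the strand of the gene. These starts are not always those of the spans used for counting. The counted span of Slc12a7 begins at 73733052, so its printed window lies inside the counted gene. That of Slc12a4 reaches 105966149, so the bases of its window nearest the start lie inside it. The second start of Slc12a5 also lies inside its counted span. Capitals mark the GC box GGGCGG and the CCAAT box, searched on both strands.
Slc12a4 (chr8:105966116-105966365, minus strand): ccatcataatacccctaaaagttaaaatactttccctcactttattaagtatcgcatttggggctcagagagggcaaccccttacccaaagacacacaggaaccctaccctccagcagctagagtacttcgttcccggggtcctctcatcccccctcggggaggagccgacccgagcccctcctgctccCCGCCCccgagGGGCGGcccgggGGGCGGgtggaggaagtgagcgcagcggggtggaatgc
Slc12a7 (chr13:73763410-73763659, plus strand): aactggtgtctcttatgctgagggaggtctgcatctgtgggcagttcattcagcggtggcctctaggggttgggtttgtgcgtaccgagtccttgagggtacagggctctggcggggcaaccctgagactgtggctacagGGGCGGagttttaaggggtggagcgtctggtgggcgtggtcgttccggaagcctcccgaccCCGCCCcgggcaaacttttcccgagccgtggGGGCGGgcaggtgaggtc
Slc12a5, first start (chr2:164960596-164960801, plus strand): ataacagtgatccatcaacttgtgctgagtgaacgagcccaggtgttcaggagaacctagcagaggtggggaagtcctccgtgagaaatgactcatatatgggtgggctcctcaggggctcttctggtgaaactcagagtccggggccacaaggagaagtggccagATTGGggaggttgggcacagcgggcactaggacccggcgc
Slc12a5, second start (chr2:164967738-164967982, plus strand): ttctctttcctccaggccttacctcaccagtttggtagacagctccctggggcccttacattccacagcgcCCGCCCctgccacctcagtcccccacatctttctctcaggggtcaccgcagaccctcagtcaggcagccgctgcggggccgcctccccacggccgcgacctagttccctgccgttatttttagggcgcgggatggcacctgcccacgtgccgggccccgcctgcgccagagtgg

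The stretches of Slc12a4 and Slc12a7 held 3 GC boxes each, and those of Slc12a5 held 0 and 1. A second annotated start of Slc12a7 has an overlapping window, not printed, with 6 GC boxes and 21 CpG dinucleotides. Among the printed stretches, a CCAAT box was found once, before the first start of Slc12a5. Of the windows not printed, that of Clcn2 and 1 of Clcn3 held 1 CCAAT box each. TATAAA was found in none of the 11 windows. Of 32851 windows of 250 bases in the same table, 32.7% held a GC box, 33.8% a CCAAT box and 12.4% TATAAA. In the full windows of 250 bases, Slc12a4 had 13 CpG dinucleotides, the first Slc12a7 window 15, and those of Slc12a5 had 13 and 16, against a median of 6 in the table. These matches describe the letters only; no binding or methylation was measured. The abundant Slc12a4 and the barely detected Slc12a5 thus had equal CpG numbers at their first windows.

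The libraries held 20070639 to 22968642 counts, so that 1 count was worth 0.0435 to 0.0498 CPM (CPM, the count of a gene scaled to the library total). Marker genes describe the makeup of the cultures: all 12 neuron markers and all 7 of the glial lineage had more than 3 counts in every library, and the summed levels were 1133 to 2366 CPM for the neuron list and 4243 to 6102 CPM for the glial list. The fibroblast list varied most in amount, with a sum of 3344 CPM in replicate 1, where all 8 genes were lowest, and of 14203 CPM in replicate 5, where 7 of 8 were highest. The sum of the satellite glia list was lowest in replicate 5, at 1664 CPM, and reached 2657 CPM in replicate 3. Its single genes differed: 3 of the 6 were lowest in replicate 1, and 2, Fabp7 and Slc1a3, were highest in replicate 5. The lists of other cells peaked in replicate 5, with sums of 8.14 to 116 CPM for endothelium, 55.1 to 1049 CPM for mural cells and 16.8 to 163 CPM for macrophages. Of those lists, the endothelial marker Cldn5 was at 0 in replicates 2, 3 and 6, and the mural marker Kcnj8 in replicate 1. In such bulk samples, fewer cells of a type and less RNA per cell cannot be told apart. Levels are compared between genes only as CPM per kb, the CPM divided by the combined exon length of the gene, which joins the exons of all annotated isoforms and so depends on the annotation.

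**Figure D1:**
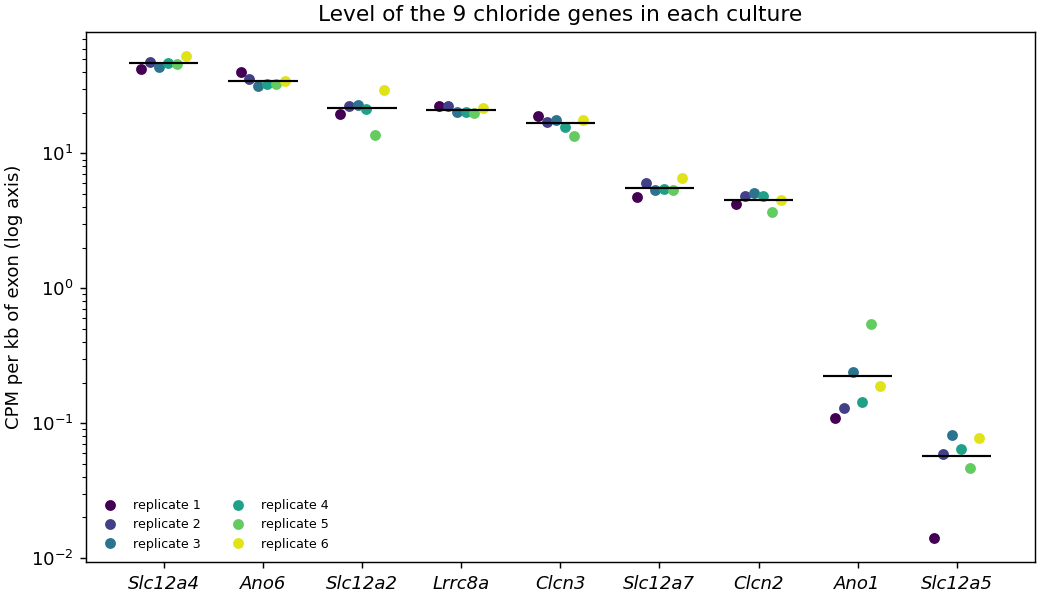
Level of the 9 genes in CPM per kb of exon (log axis); each point is 1 of the 6 cultures, coloured by replicate, and the line is the mean. Slc12a4 and Ano6 stood highest, and Ano1 and Slc12a5 lay far below the others. The cultures spread most for Ano1 and Slc12a5, whose counts were low.

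Among the cotransporters, Slc12a4 was the most abundant and Slc12a5 was barely detected. Slc12a4 (gene 20498, chr8:105943590-105966149) lay between 42.6 and 52.5 CPM per kb with a median of 46.5, and its mean was 46.7 ± 3.42 (SD, n = 6). Replicate 1 was lowest and replicate 6 highest, and the mean exceeded that of 90.8% of the 14998 genes kept by the filter on low counts. Slc12a2 (gene 20496), which brings in chloride together with sodium and potassium, was less abundant than Slc12a4 in every library. Its levels in replicates 1 to 6 were 19.6, 22.6, 22.9, 21.5, 13.8 and 29.8 CPM per kb, a mean of 21.7 ± 5.19 (SD, n = 6). Replicate 5 stood low and replicate 6 high, and the other 4 cultures lay close together. The ratio of Slc12a2 to Slc12a4 per kb was accordingly 0.297 in replicate 5 (95% counting interval 0.281 to 0.314) and 0.567 in replicate 6 (0.544 to 0.592), with the other cultures from 0.459 to 0.520. The intervals of these 2 cultures did not overlap; they cover counting error only, as do all intervals given here.

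Slc12a5, the gene of the neuronal potassium-chloride cotransporter KCC2 (gene 57138, chr2:164960846-164999731), had 2, 8, 11, 8, 6 and 10 counts in replicates 1 to 6. That corresponds to 0.0871 to 0.508 CPM, with exact Poisson 95% intervals from 0.0105 to 0.315 CPM for the lowest and from 0.253 to 0.909 CPM for the highest. The gene did not reach 1 CPM in any library and did not pass the filter on low counts, so it entered none of the tests across genes. Its mean of 0.0572 ± 0.0247 CPM per kb (SD, n = 6) exceeded that of 0.0933% of the kept genes. Neuron markers were present in the same libraries, for instance the neuronal tubulin Tubb3 at 317 to 601 CPM and the nociceptor sodium channel Scn10a at 32.7 to 131 CPM. Slc12a2 exceeded Slc12a5 by 279 to 385 times per kb in replicates 2 to 6, with counting intervals reaching from 136 to 888. In replicate 1, where Slc12a5 rested on 2 counts, the ratio was 1388 with an interval of 384 to 11469.

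Slc12a7 (gene 20499, chr13:73733052-73816754), the KCC4 gene, lay at 4.73 to 6.53 CPM per kb with a median of 5.41 and a mean of 5.58 ± 0.619 (SD, n = 6). As for Slc12a4, replicate 1 was lowest and replicate 6 highest. Of the summed level per kb of the 4 cotransporter members, Slc12a4 made up 63.4% ± 4.00, Slc12a2 29.0% ± 4.27, Slc12a7 7.54% ± 0.397 and Slc12a5 0.0761% ± 0.0307 (SD, n = 6 for each). The share of Slc12a2 was lowest in replicate 5, at 21.0%, and highest in replicate 6, at 33.5%, and that of Slc12a4 ran the other way, from 70.8% in replicate 5 to 59.1% in replicate 6.

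**Figure D2:**
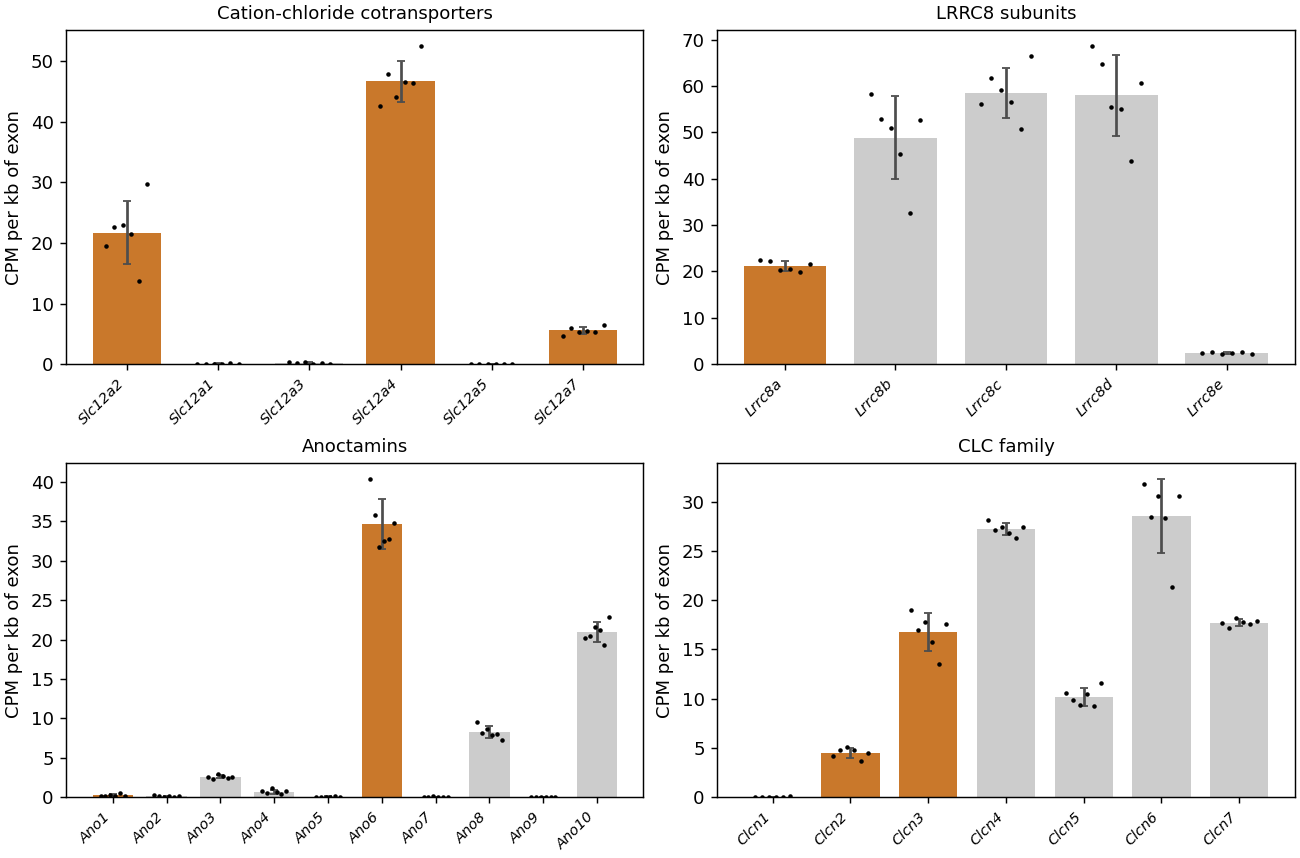
Level of each member (orange) and of its relatives (grey) in CPM per kb of exon; bars are means, error bars SD and points the 6 cultures. Slc12a4 and Ano6 led the cotransporters and anoctamins, whereas Lrrc8a, Clcn2 and Clcn3 each had more abundant relatives.

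The 2 anoctamins lay at opposite ends of the order. Ano6 (gene 105722, chr15:95790843-95975472) encodes TMEM16F, a calcium-dependent lipid scramblase that also passes ions. Its levels were 31.7 to 40.3 CPM per kb with a median of 33.8 and a mean of 34.6 ± 3.18 (SD, n = 6), highest in replicate 1. Ano6 made up 51.1% ± 2.48 of the summed level of Ano1 to Ano10 per kb (SD, n = 6), and its mean exceeded that of 87.0% of the kept genes. Long noncoding RNA genes overlap Ano6 on the other strand, among them A130051J06Rik with 74 counts over the 6 libraries, against 34341 for Ano6.

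Ano1 (gene 101772, chr7:144588549-144752026), which encodes TMEM16A, the calcium-activated chloride channel described in small sensory neurons and in smooth muscle, was rare. It had 14, 16, 29, 16, 63 and 22 counts in replicates 1 to 6, or 0.610, 0.729, 1.34, 0.797, 3.01 and 1.05 CPM. Replicate 5 stood apart from the other 5 cultures, and its Poisson interval of 2.31 to 3.85 CPM did not overlap with that of any other library, of which the highest reached 1.92 CPM. Replicate 5 was also the culture with the highest summed fibroblast, mural, endothelial and macrophage markers and the lowest summed neuron and glial markers. Not every gene followed the sums: the neuron markers Prph, Rbfox3, Elavl4, Isl1 and Scn10a and the glial marker Gfra3 were lowest in replicate 2. Replicate 5 was highest for 4 of the 6 mural and 5 of the 8 macrophage genes. The mural marker Myh11 was highest in replicate 6 (54.9 CPM, against 53.5 in replicate 5) and Des in replicate 3 (2.68 CPM, against 1.82). Acta2 made up 836 CPM of the mural sum of 1049 CPM in replicate 5. The part of mural and endothelial cells in the Ano1 level was not tested. The ratio of Ano6 to Ano1 per kb was 60.8 in replicate 5 (95% counting interval 47.5 to 79.3) and 132 to 369 in the other cultures. The mean of Ano1 was 0.225 ± 0.161 CPM per kb (SD, n = 6), and 3 of 6 libraries reached 1 CPM.

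Of the CLC genes, Clcn3 (gene 12725, chr8:60910389-60983317) encodes a chloride-proton exchanger of endosomes. Its levels in replicates 1 to 6 were 19.0, 17.0, 17.8, 15.8, 13.5 and 17.6 CPM per kb, a mean of 16.8 ± 1.92 (SD, n = 6). Replicate 1 was highest and replicate 5 lowest. Clcn2 (gene 12724, chr16:20702435-20717746), the gene of a chloride channel of the plasma membrane that opens on hyperpolarization, lay at 3.65 to 5.11 CPM per kb with a median of 4.67 and a mean of 4.52 ± 0.523 (SD, n = 6), and it too was lowest in replicate 5. Clcn3 exceeded Clcn2 by 3.26 to 4.50 times per kb in every library. Clcn3 made up 15.9% ± 0.856 and Clcn2 4.31% ± 0.391 of the summed level of Clcn1 to Clcn7 per kb (SD, n = 6 for each). Clcn2 overlaps the gene Fam131a on the opposite strand by 610 bases, and Fam131a had 1043 counts over the 6 libraries against 3017 for Clcn2. The libraries were stranded, but the strand setting of the counting is not given in the sources used here.

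Lrrc8a (gene 241296, chr2:30237769-30263790) encodes the subunit without which the volume-regulated anion channel does not work. It lay at 19.9 to 22.5 CPM per kb with a median of 21.0 and a mean of 21.2 ± 1.11 (SD, n = 6), and its coefficient of variation of 5.22% was the smallest of the 9 genes. The subunits that assemble with it, Lrrc8b, Lrrc8c and Lrrc8d, were each more abundant per kb in every library. Lrrc8a made up 11.3% ± 1.00 of the summed level of the 5 subunits, Lrrc8b 25.7% ± 2.13, Lrrc8c 31.1% ± 2.37, Lrrc8d 30.6% ± 1.45 and Lrrc8e 1.30% ± 0.228 (SD, n = 6 for each). Lrrc8a took its largest share, 13.3%, in replicate 5, against 10.6% to 11.4% elsewhere.

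The order of the 9 genes by mean level per kb was Slc12a4, Ano6, Slc12a2, Lrrc8a, Clcn3, Slc12a7, Clcn2, Ano1 and Slc12a5. Each of the 36 pairs was tested on the within-library difference of log2(CPM per kb + 0.1) by an exact permutation test that flips its sign in each of the 6 libraries (two-sided, smallest possible p 0.0312). In 35 of 36 pairs the same gene was higher in all 6 libraries, each with the smallest possible exact permutation p and an adjusted p of 0.0321 over the 36 pairs. The exception was Slc12a2 and Lrrc8a, neighbours in the order: Slc12a2 was higher in 4 of 6 libraries, and the log2 difference of -7.7e-05 ± 0.33 (SD, n = 6) was within the spread (exact permutation p = 1, adjusted 1). The other neighbours were separated by 0.43 ± 0.18 for Slc12a4 over Ano6, 0.70 ± 0.38 for Ano6 over Slc12a2, 0.34 ± 0.13 for Lrrc8a over Clcn3 and 0.30 ± 0.20 for Slc12a7 over Clcn2 (log2, SD, n = 6). Larger steps lay between Clcn3 and Slc12a7, at 1.57 ± 0.24, and between Clcn2 and Ano1, at 3.94 ± 0.71, and the last step, from Ano1 to Slc12a5, was 0.95 ± 0.60. The size of that last step depends on the added 0.1, which exceeds the Slc12a5 mean of 0.0572 CPM per kb. Slc12a5 minus Ano1 was -1.71 with 0.01 added and -0.20 with 1 added. The mean of Ano1 per kb was 3.93 times that of Slc12a5. Without the scaling by length, 33 of 36 pairs passed, and Slc12a2 against Slc12a4, Slc12a2 against Clcn3 and Slc12a4 against Clcn3 did not (exact permutation, adjusted p = 0.0993, 0.193 and 0.562). On that scale the order of Slc12a4 and Ano6 turned to a log2 difference of -0.56, Slc12a2 stood above Lrrc8a by 0.75, and Clcn3 stood above Lrrc8a by 0.95.

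The relative spread of the members between cultures was largest for Ano1, Slc12a5 and Slc12a2 and smallest for Lrrc8a. That of Slc12a5 rests on 2 to 11 counts per library and was not tested against counting error. A chi-square test, with the counts expected from the scaled library sizes, called 8 of 8 members tested, at an adjusted p under 0.05 over 14998 genes, where it called 76.3% of all genes; since the test sets separate cultures against counting error alone and the members' share is near this background, the calls are not a result about the members. Slc12a2 had the largest statistic, 971.7, above that of 96.1% of the kept genes, and the smallest were 32.9 for Clcn2 and 43.8 for Lrrc8a. This statistic grows with the count. The coefficient of variation of Slc12a2 exceeded that of 78.9% of the kept genes. The Slc12a2 statistic was 405 without replicate 5 and 438 without replicate 6. Without replicate 5, the statistics of Ano1 and Clcn2 were 7.56 and 8.86, and both lost the call. In relative spread, the coefficients of variation of CPM were 71.5% for Ano1, 43.2% for Slc12a5, 23.9% for Slc12a2, 11.1% to 11.6% for Slc12a7, Clcn3 and Clcn2, 9.19% for Ano6 and 7.32% for Slc12a4, against a median of 12.1% over the kept genes. Slc12a2 varied 2.16-fold between its lowest and highest culture, and Lrrc8a 1.13-fold.

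**Figure D3:**
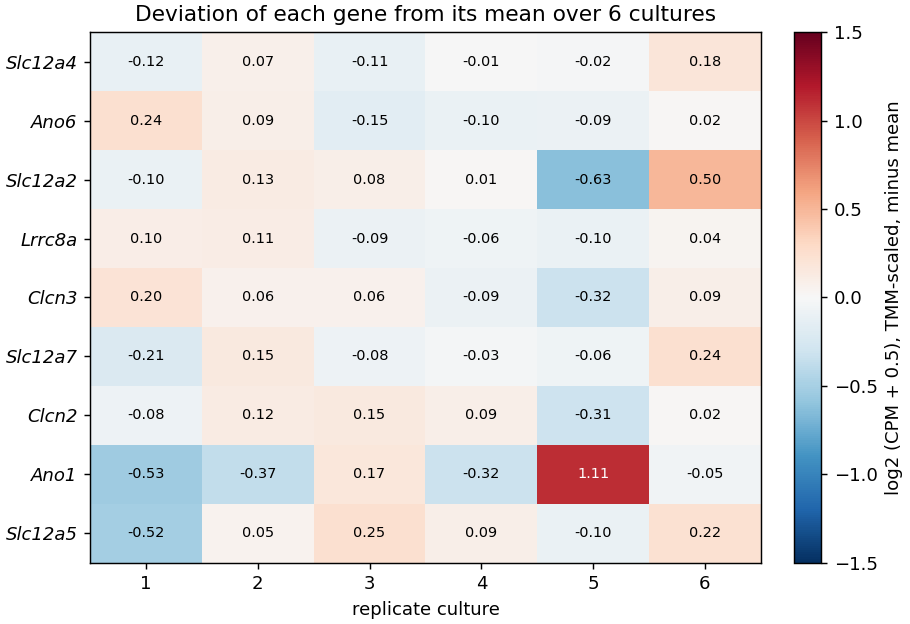
Deviation of each gene from its own mean over 6 cultures, in log2(CPM + 0.5) after TMM scaling of the library sizes; red is above and blue below the mean. Replicate 5 combined the highest Ano1 (1.11) with the lowest Slc12a2 (-0.63), Clcn3 (-0.32) and Clcn2 (-0.31).

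Relative to the mean of each gene, replicate 5 was low in Slc12a2, Clcn3 and Clcn2 and high in Ano1, whereas Slc12a4 and Slc12a7 deviated there by -0.02 and -0.06 on the log2 scale. Replicate 6 was the highest culture for Slc12a2, Slc12a4 and Slc12a7, with deviations of 0.50, 0.18 and 0.24. Replicate 1 was the highest for Ano6 and Clcn3, at 0.24 and 0.20, and the lowest for Slc12a4, Slc12a7, Ano1 and Slc12a5. As a description over 6 libraries that differed in makeup, the closest pairs of members were Slc12a4 with Slc12a7 (Pearson's r = 0.95) and Ano6 with Lrrc8a (r = 0.90). Ano1 and Clcn3 moved most in opposite directions (r = -0.82).

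The levels of the members were set beside marker scores, each the average of log2(CPM per kb + 0.1) taken over the genes in a list, because the cultures held several cell types. The slope of each gene on the fibroblast, glial lineage and neuron scores was fitted over all 14998 kept genes with edgeR's quasi-likelihood test and adjusted over them. With the fibroblast score, which ran from 3.50 in replicate 1 to 7.04 in replicate 5, 1 of 8 members tested passed in edgeR, and it fell; over all genes 4.8% rose and 1.03% fell. That member was Clcn3, which changed by -0.15 ± 0.03 log2 units per unit of score (SE; edgeR adjusted p = 0.0281). Its TMM-scaled level followed the reverse order of the scores in all 6 cultures: Pearson's r was -0.98 (exact permutation p = 0.00139, adjusted over all genes 0.131), and Spearman's rho was -1 (exact permutation p = 0.00278, adjusted 0.229), both p-values being the smallest possible. Without replicates 1 and 5, the farthest from the median score, r was -0.998 over the 4 remaining cultures. The edgeR call was lost without replicate 2 (adjusted p = 0.0510), 3 (0.0505), 4 (0.0832), 5 (0.364) or 6 (0.0518) and held without replicate 1 (0.0451), with slopes from -0.18 to -0.11; DESeq2 gave an adjusted p of 0.000116 with all cultures.

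Ano1 had the steepest slope of the members on the fibroblast score, 0.58 ± 0.17 (SE), and did not pass (edgeR adjusted p = 0.0946). Its r of 0.75 (exact permutation p = 0.101, adjusted 0.326) turned to -0.51 without replicates 1 and 5. Its rho was 0.54 (exact permutation p = 0.297, adjusted 0.627). The slope was 0.62 without replicate 1 (edgeR adjusted p = 0.171) and 0.66 without replicate 4, where it passed (edgeR adjusted p = 0.0475). Without replicate 5 it was 0.15 (edgeR adjusted p = 0.862), so the relation rests mainly on replicate 5. Slc12a2 had a slope of -0.18 ± 0.11 (edgeR adjusted p = 0.358), which was -0.39 and passed without replicate 1 (edgeR adjusted p = 0.0429) and 0.03 without replicate 5. The slopes of Slc12a4 and Slc12a7 were 0.01 each, and those of Ano6, Lrrc8a and Clcn2 were -0.09, -0.06 and -0.06, with edgeR adjusted p from 0.231 to 0.946 for these 5 genes.

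With the glial lineage score, which ran only from 6.31 to 6.90, 0 of 8 members passed in edgeR, where 0.00667% of all genes rose and 0.00667% fell. At an unadjusted p under 0.05 edgeR gave 3058 genes, and DESeq2 called 547 that rose and 462 that fell. Slc12a2 was nearest to the threshold among the members, at 1.60 ± 0.29 log2 units per unit of score (SE; edgeR adjusted p = 0.0702). Its r was 0.93 (exact permutation p = 0.00833, adjusted 0.290), rho was 0.94 (exact permutation p = 0.0167, adjusted 0.497), and r was 0.92 without replicates 4 and 5. The Slc12a2 slope passed in DESeq2 (adjusted p = 9.20e-05) and without replicate 1 (edgeR adjusted p = 0.0189), where 429 genes of the whole table rose and 774 fell. It did not pass without replicate 2, 3, 4, 5 or 6 (edgeR adjusted p = 0.139, 0.129, 0.134, 0.9998 and 0.185), with slopes from 1.34 to 1.73. The slope was 0.74 when the score was taken as the median over the markers (edgeR adjusted p = 0.492). Ano1 had a slope of -2.84 ± 0.92 (SE; edgeR adjusted p = 0.168), which was 1.76 without replicate 5. Clcn3 had a slope of 0.73 ± 0.22 (edgeR adjusted p = 0.151) and passed without replicate 1 (edgeR adjusted p = 0.0309), in the fit where 429 genes rose. Without replicate 5 its slope was 0.40 (edgeR adjusted p = 0.9998). Its r of 0.87 turned to -0.78 without replicates 4 and 5. The glial and fibroblast scores themselves ran against each other (r = -0.75 over the 6 libraries), so a relation with one cannot be told apart from a relation with the other. Scores made in the same way from other lists cannot be told apart from them either. The fibroblast score rose with those of endothelium (r = 0.90), macrophages (0.84), mural cells (0.78) and satellite glia (0.66). The glial score ran against that of endothelium (r = -0.92). Slopes on those other scores were not fitted. With the neuron score, from 4.02 to 5.03, 0 of 8 members passed in edgeR and 0% of all genes rose or fell, against 1303 genes at an unadjusted p under 0.05 and, in DESeq2, 246 that rose and 19 that fell. The edgeR slopes of the members on it lay between -0.82 for Ano1 and 0.40 for Slc12a2, each with an adjusted p of at least 0.756; without replicate 5 these slopes were 0.79 for Ano1 and 0.03 for Slc12a2.

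**Figure D4:**
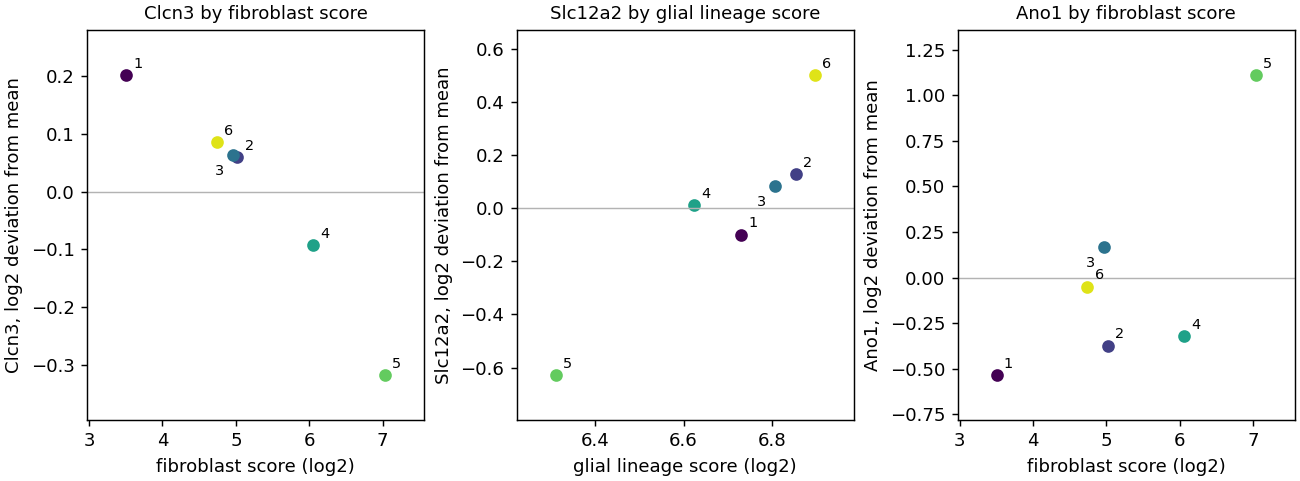
Log2 deviation of Clcn3 and Ano1 from their means against the fibroblast score, and of Slc12a2 against the glial lineage score; each point is 1 culture with its replicate number. Clcn3 falls steadily over the 6 cultures, whereas replicate 5 stands alone at the top for Ano1, and Slc12a2 ranges from replicate 5 at the bottom to replicate 6 at the top.

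For each of the 8 kept members, the genes with the most similar pattern over the 6 libraries were sought among kept genes with a mean of at least 5 CPM, by Pearson's r of log2(CPM + 0.5) after TMM scaling. Over 6 libraries these r values are a description only. The 2 closest genes were Tmem14c (0.991) and Ctnnal1 (0.989) for Slc12a2, Bbip1 (0.983) and Cavin1 (0.980) for Slc12a4, and Zfp865 (0.994) and Cspg4 (0.991) for Slc12a7. They were Mri1 (0.994) and Slbp (0.988) for Ano1, Zbtb6 (0.996) and H3f3a-ps1 (0.992) for Ano6, Vapb (0.995) and Cldn19 (0.993) for Clcn2, Ppp2r3c (0.998) and Ablim1 (0.997) for Clcn3, and Hdac4 (0.996) and Atp6v0a2 (0.992) for Lrrc8a. H3f3a-ps1 is annotated as a pseudogene, so its reads may be shared with its parent gene.

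The members were set in a wider list of 44 other genes of chloride transport and its control. Of these, 29 passed the filter on low counts, 28 had a mean of at least 5 CPM, and 5 were at 0 counts in all libraries, among them Ano9 and Best2. The filter kept 8 of the 9 members. The chi-square test called 25 of the 29 kept list genes, where it called 76.3% of all genes; Ano3, Clcc1, Lrrc8e and Clcn7 did not pass. With the fibroblast score, 2 of 29 fell and 0 rose in edgeR, against 1.03% and 4.8% of all genes: Lrrc8b by -0.24 ± 0.05 (SE; edgeR adjusted p = 0.0287) and the kinase gene Wnk2 by -0.49 ± 0.11 (SE; edgeR adjusted p = 0.0492). The Lrrc8b call was lost without replicate 4, 5 or 6 (edgeR adjusted p = 0.0626, 0.3504 and 0.0525) and the Wnk2 call without replicate 1, 3, 4 or 5 (0.147, 0.0666, 0.123 and 0.407); over the whole table, 154 genes fell with all cultures and 5 without replicate 5. With the glial and neuron scores, 0 of 29 passed in edgeR.

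All 7 genes of the WNK-SPAK pathway, the kinases that switch NKCC1 on and the potassium-chloride cotransporters off by phosphorylation, reached at least 5 CPM. Wnk1, the kinase that heads it, had 46.6 ± 3.36 CPM per kb, and the scaffold Cab39 had 40.6 ± 2.80. The effector kinases Oxsr1 and Stk39 had 11.3 ± 0.602 and 9.92 ± 1.51, while Wnk4, Wnk3 and Wnk2 had 1.95 ± 0.765, 0.573 ± 0.0796 and 0.569 ± 0.243 CPM per kb (SD, n = 6 for each). Slc12a9, a relative of the cotransporters, had 3.46 ± 0.447 CPM per kb (SD, n = 6). The renal sodium-chloride transporters Slc12a1 and Slc12a3 were under 5 CPM, as was Slc12a8, with maxima of 1.24, 1.26 and 0.573 CPM.

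Of the other 8 anoctamins, Ano10, Ano8 and Ano3 had at least 5 CPM, at 20.9 ± 1.23, 8.27 ± 0.745 and 2.63 ± 0.207 CPM per kb, means above that of Ano1 and under that of Ano6. Means of the remaining anoctamins ran from 0 to 4.06 CPM. Ano2, the closest relative of Ano1, had 0.334 to 1.09 CPM. Among CLC genes, Clcn6 (28.5 ± 3.77 CPM per kb), Clcn4 (27.2 ± 0.639) and Clcn7 (17.7 ± 0.334) had higher means than Clcn3, and Clcn5 (10.2 ± 0.885) lay between Clcn3 and Clcn2 (SD, n = 6 for each). Ostm1, the partner of the lysosomal exchanger Clcn7, had 26.7 ± 2.49, and the muscle channel gene Clcn1 reached at most 0.574 CPM.

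The LRRC8 partners of Lrrc8a had 58.5 ± 5.39 (Lrrc8c), 58.0 ± 8.73 (Lrrc8d), 48.8 ± 8.94 (Lrrc8b) and 2.42 ± 0.187 CPM per kb (Lrrc8e; SD, n = 6 for each). Part of the reads of Lrrc8c and Lrrc8d were counted as fractions in all 6 libraries, against 2 libraries for Lrrc8a and for Slc12a4 and 0 for the other members. Among other channels and exchangers, the tweety genes Ttyh1 and Ttyh2 reached 105.8 ± 23.1 and 80.2 ± 12.5 CPM per kb, means above that of every member, and Ttyh3 15.3 ± 2.37. The anion exchangers Slc4a2 and Slc4a3 had 29.2 ± 2.07 and 3.95 ± 0.443, the proton-activated channel gene Pacc1 18.0 ± 3.78, and Clcc1 8.85 ± 0.489 CPM per kb (SD, n = 6 for each). Cftr, the cystic fibrosis channel gene, had at most 1 count per library, and the bestrophin genes Best1 and Best3 reached at most 1.72 and 0.191 CPM.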

How the data were processed

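The authors deposited 1 table of estimated counts per gene for the 6 cultures, with a combined exon length per gene; it is named raw, but 13.4% to 14.7% of its cells per library were not whole numbers. The submitters' processing notes name bcl2fastq 2.20.0.422, cutadapt 2.5, STAR 2.7.2b, featureCounts 1.6.4 and Subread, and the build GRCm38.p6; how reads matching several places were divided is not given in the sources used here. CPM used the column total, and 0 columns of per-sample values were left unused. For tests, counts were rounded to whole numbers. Genes were kept with edgeR's filterByExpr (14998 of 45703), library sizes scaled with TMM, and slopes fitted with edgeR 4.0.16 (R 4.3.3) or, as an alternative, DESeq2 1.42.0; p-values were adjusted by Benjamini-Hochberg. Other alternatives were DESeq2 size factors, no filter, a median score, no length scaling and leaving out each replicate. The scripts were checked on simulated data. Named genes were the 9 members, the chloride list with a mean of at least 5 CPM, others by range, and 2 similar genes per member. The members and lists were chosen with earlier results of these data known. Some genes of the chloride list are counted but not reported here.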

Additional observations from a re-analysis of the deposited data

Results flagged for a closer look

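One of the 9 members had a culture far from the others. Ano1 stood at 3.01 CPM in replicate 5 and at 1.34 CPM in the next highest culture, and this gap, divided by the range of the 6 cultures, was 0.696, above Dixon's critical value of 0.625. With 9 genes examined, chance would flag 0.45 on average.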

How the results depend on the processing

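Beside the changes given with the results, 415 values of single genes kept their direction and side of the threshold or stayed within the replicate spread; 5 passed and 7 no longer passed under an alternative, and 21 turned sign. Without scaling by length the log2 difference was 0.75 for Slc12a2 minus Lrrc8a, -0.56 for Slc12a4 minus Ano6 and 0.95 for Clcn3 minus Lrrc8a; gene length makes this change by construction. Slc12a2 minus Lrrc8a, near 0 with all cultures, was 0.0014 with a pseudocount of 1 and -0.0919 to 0.105 when 1 replicate was left out. Several slopes that did not pass turned sign when 1 replicate was left out. On the fibroblast score these ran from -0.394 to 0.0331 for Slc12a2, -0.0464 to 0.0367 for Slc12a4, -0.0984 to 0.0713 for Slc12a7 and -0.160 to 0.0760 for Clcn2. On the glial score they ran from -0.00826 to 0.66 for Slc12a4 and -3.32 to 1.76 for Ano1. On the neuron score they ran from -0.156 to 0.0184 for Slc12a4, -0.196 to 0.0227 for Slc12a7, -1.82 to 0.79 for Ano1, -0.164 to 0.138 for Ano6, -0.0199 to 0.440 for Clcn2 and -0.158 to 0.0589 for Lrrc8a; with the median score Ano6 had 0.0648 and Lrrc8a 0.0427. Of the counts of genes over the whole table, those that rose with the fibroblast score were 1125 in DESeq2 and 115 to 730 when 1 replicate was left out, and those that fell were 611 and 5 to 213, lowest without replicate 5. With the glial score, 38 rose and 48 fell without the filter, 547 and 462 in DESeq2, and 0 and 0 with the median score; with DESeq2 size factors 0 fell. Leaving out 1 replicate gave 0 to 429 that rose and 0 to 774 that fell, highest without replicate 1. With the neuron score, 246 rose and 19 fell in DESeq2, and 51 and 3 with the median score; leaving out 1 replicate kept both at 0. The causes of these changes of count were not tested. No paired analysis was possible because the cultures form a single group. Depth limits Slc12a5 and Ano1, whose levels rest on 2 to 11 and 14 to 63 counts per library.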
